A study of Mus musculus with 16 samples.

Results

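Amino acid breakdown and the urea cycle were followed through 42 genes in mouse liver, taken from a list of gene names. The rule that picks them uses no measured value, but the list was drawn up with earlier results of these data known. All 42 were found in the deposited table of 12618 genes, and all 42 passed the filter on low values. All mice had been kept on a Western diet over 8 weeks, and their livers formed 2 groups of 8 libraries, 1 labelled as control CRISPR and 1 as Cyp7a1 CRISPR. Cyp7a1 is the gene of cholesterol 7alpha-hydroxylase, which sets the pace of classical bile acid synthesis, and CRISPR cuts a chosen gene so that its repair can disrupt it. The diet is shared by both groups, so the comparison is Cyp7a1 against control on that diet. The labels used here give no strain, sex, age, guide or route of delivery, and they do not say in which liver cells the editing took place.

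The liver is the main organ that takes amino groups off amino acids. Transaminases and glutamate dehydrogenase gather these groups as glutamate and free ammonia, and the urea cycle, which runs partly in the mitochondria and partly in the cytosol, turns the ammonia into urea. The carbon skeletons go on to glucose, ketone bodies or the citric acid cycle, and the sulfur and methyl groups of methionine feed methylation and cysteine supply. Many of these enzymes are made mostly by hepatocytes near the portal vein, and glucagon, glucocorticoids and the amino acid supply are known to act on their genes.

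Cyp7a1 transcripts were at no lower a level in the group that carries the gene's name. Cyp7a1 had a lowest, median and highest value of 2148, 3281 and 5642 normalized counts in controls and 3069, 4892 and 5873 in the other group. Its log2 fold change was 0.43 (95% interval 0.01 to 0.84, limma adjusted p = 0.227). Reads per gene cannot show an edited coding sequence, so the group is called Cyp7a1-labelled here and each direction rests on the labels. Depth, as whole reads recovered from the values, was 13.8 to 25.4 M reads per control library and 19.6 to 27.4 M reads per Cyp7a1-labelled library. Of 10 hepatocyte markers 9 were in the table, and none of these was at 0 in any library.

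Several libraries stood apart from their groups in the levels of the 42 genes as a whole. Cyp7a1 24 had the lowest value of its 8 livers for 30 of the 42 genes (71.4%), while it was lowest for 19.5% of all genes. Control 13 was lowest of the controls for 20 of the 42 and Control 7 for 14. At the other end, Control 20 was the highest control for 26 of the 42 (61.9%, against 18.6% of all genes), Cyp7a1 17 the highest of its group for 23 and Cyp7a1 36 for 16. For the 42 genes, the median deviation from the mean of the liver's own group was taken on the log2 scale. It ran from -0.33 in Cyp7a1 24 to 0.31 in Cyp7a1 17, and from -0.28 in Control 13 to 0.27 in Control 20. The median deviation of all genes lay between -0.0018 and 0.0058 in each library. Division by a size factor per library brings the typical gene to a like level in advance. The all-gene range therefore cannot show how unusual the 42 genes were, and medians of other gene sets were not compared.

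Markers of other cell types differed between the same livers. The summed level of 16 Kupffer cell and macrophage markers was 33483 normalized counts in Cyp7a1 24 and 11451 to 18472 in the other 7 Cyp7a1-labelled livers. Among controls it was highest in Control 13 (23536) and Control 7 (20590) and lowest in Control 20 (12795). The sum of 9 stellate cell and fibroblast markers was 5291 to 15809 in controls, with the extremes in Control 20 and Control 13, and 7018 to 14138 in the Cyp7a1-labelled group, highest in Cyp7a1 24. The sum of 9 hepatocyte markers, of which albumin made up 58.7% to 68.8%, was lowest among controls in Control 13 (1.89 M) and in the Cyp7a1-labelled group in Cyp7a1 24 (1.95 M). The highest of the 16 sums was in Control 20 (2.73 M). None of the macrophage, stellate, endothelial, cholangiocyte, lymphocyte or blood markers in the table passed the threshold between the groups. The part of these cells in the results was not tested, and in bulk tissue fewer cells of a type and less RNA per cell cannot be told apart.

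**Figure D1:**
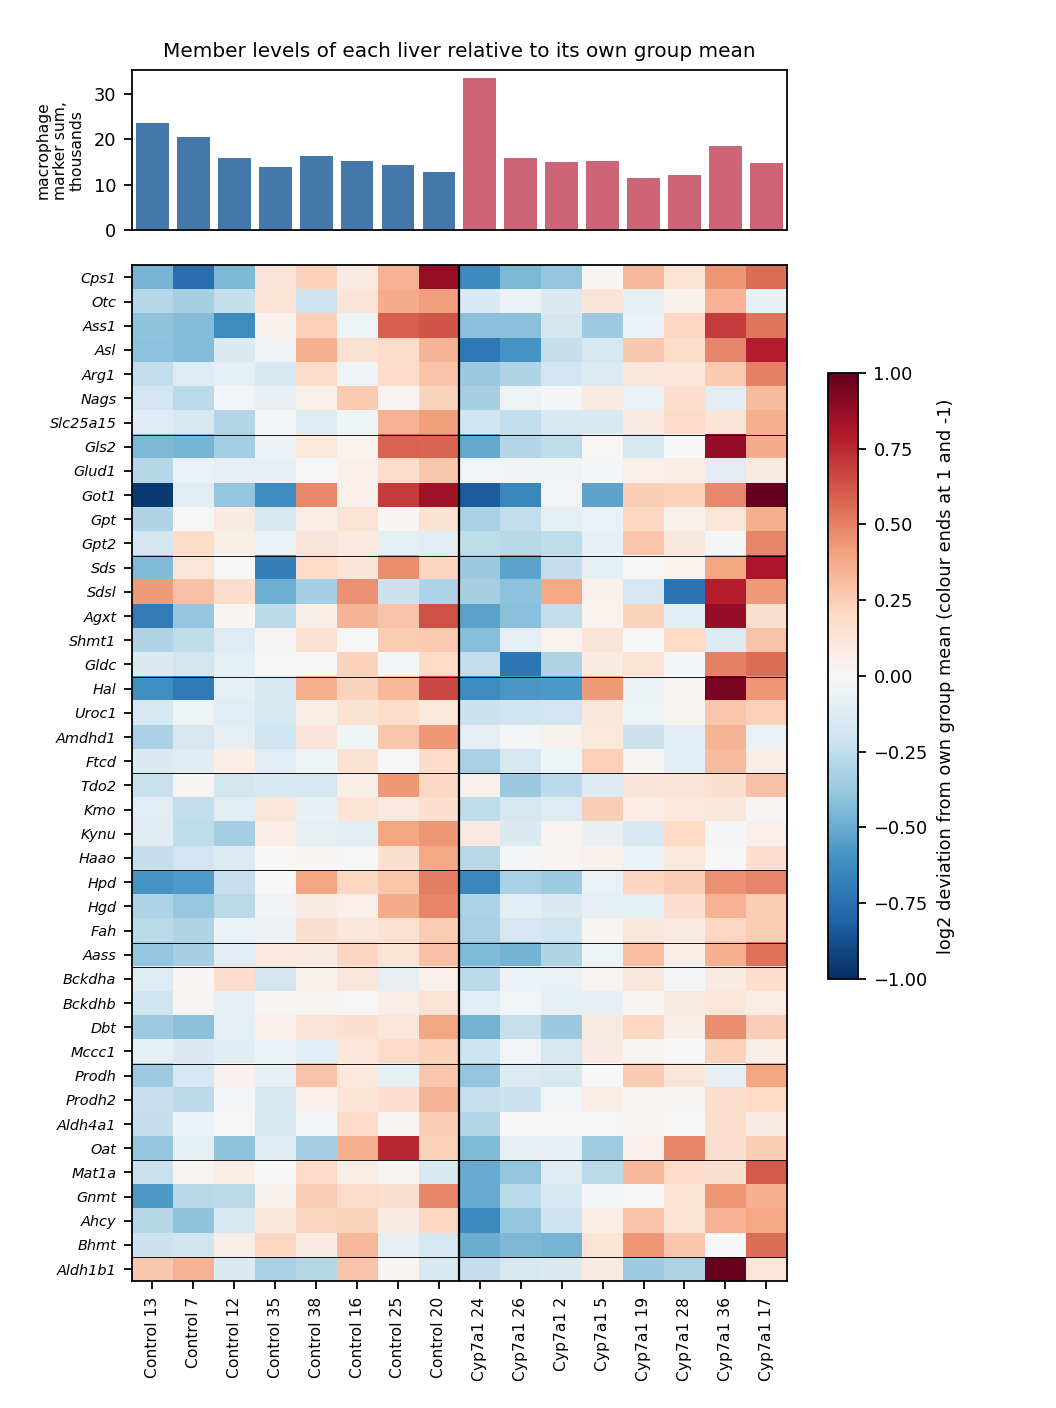
Each square of the lower panel is 1 gene in 1 liver, as the log2 difference from the mean of that liver's own group, with livers ordered within a group by their median over the 42 genes. Bars above give the summed normalized count of 16 macrophage markers per library (k). Cyp7a1 24, with the tallest bar at 33483, sits at the low end of its group (median -0.33), and Control 20, with the shortest control bar at 12795, at the high end of the controls (median 0.27). Control 13 and Control 7, with the tallest control bars (23536 and 20590), have medians of -0.28 and -0.19. Not every liver follows this order, and a relation between bars and medians was not tested. Cyp7a1 36, with the next tallest bar of its group (18472), has a median of 0.27, and Cyp7a1 19, with the shortest (11451), has 0.05.

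Of the 42 genes, 6 were higher and 1 was lower in the Cyp7a1-labelled livers at a limma adjusted p under 0.05, or 14.3% higher and 2.38% lower. The background among the 12617 genes of the fit was 3.07% in the upward and 3.05% in the downward direction, 6.12% in all. The 6 higher genes were Got1, Bhmt, Aldh1b1, Gpt2, Tdo2 and Slc25a15, and the lower one was Ftcd. A further 10 had an unadjusted p under 0.05 and did not pass after adjustment, so 17 of 42 lay under 0.05 unadjusted, where 20.5% of all genes did. The median log2 fold change of the 42 was 0.12, with 29 above 0. Over all genes the median was 0.0034, and 50.9% lay above 0. Division by size factors keeps this all-gene median near 0, so it is a reference level and not a test of the 42. Without Control 20 and Cyp7a1 24 together, a setting added with the data in view, 10 of the 42 were higher and 1 lower. Control 20 was above its group's mean for 37 of the 42 and Cyp7a1 24 below its own for 40. Omitting these 2 livers thus raises most of the fold changes by construction, and no conclusion is drawn from that count. Leaving out Control 38 alone left 4 of the 42 past the threshold. Over all genes, leaving out single libraries left 475 to 813 past it. In 4 of the 7 the change was under 1.5-fold. Whether the 16 libraries are from 16 animals is not in the labels, and p-values rest on the spread among these libraries, which may be technical.

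**Figure D2:**
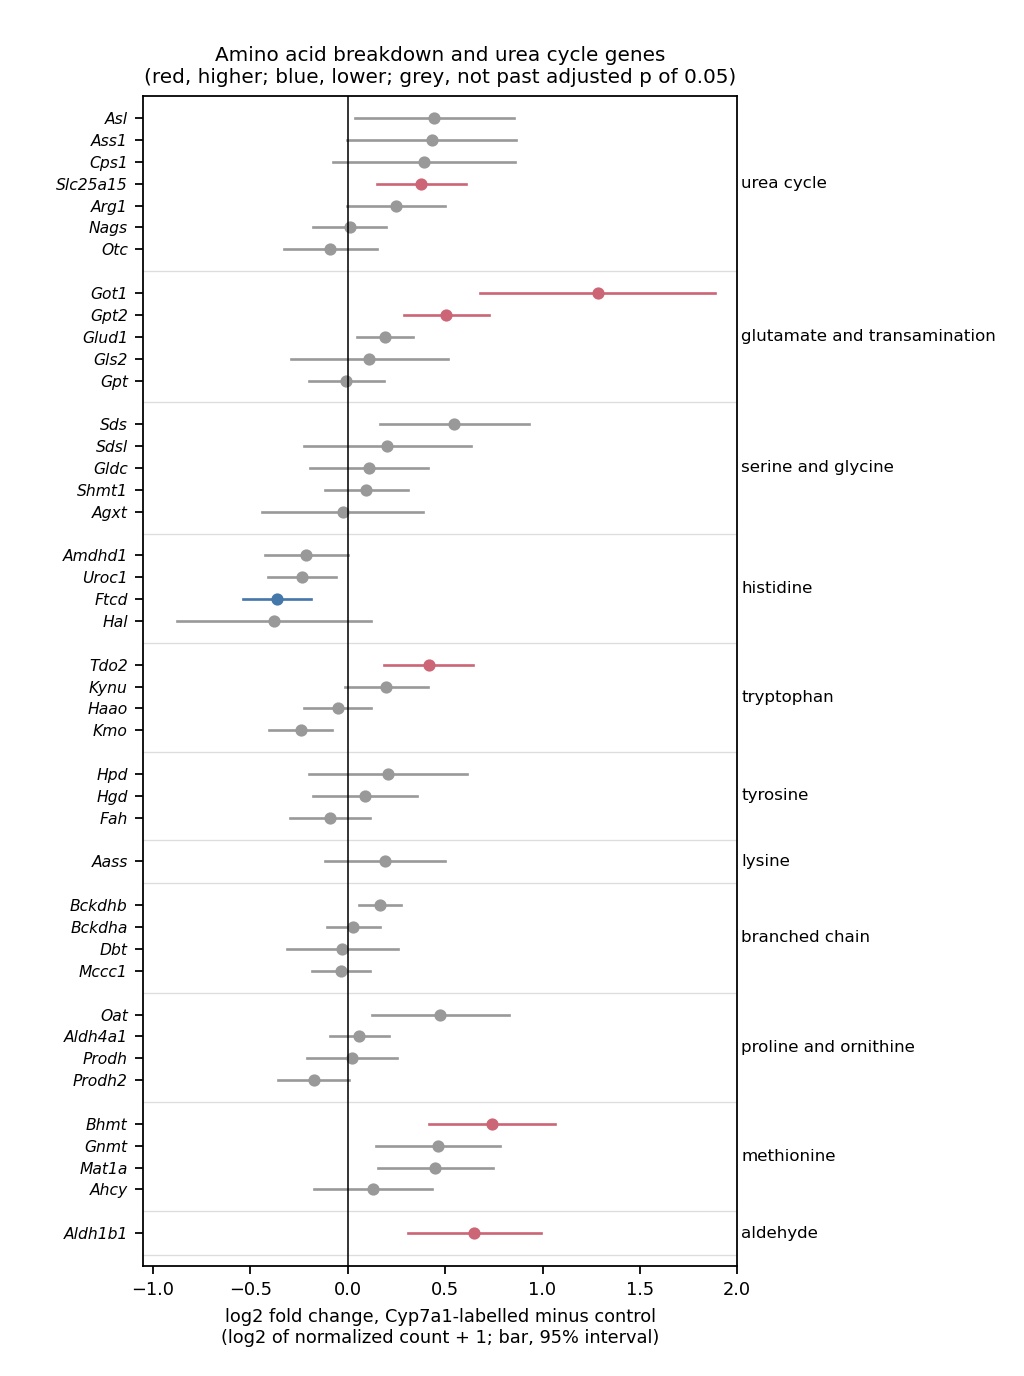
Points are the log2 fold change of each of the 42 genes, Cyp7a1-labelled minus control (8 livers each), and bars the 95% interval of limma, by pathway. Got1 lies furthest to the right at 1.28, and all 4 histidine genes lie to the left of 0.

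Upstream sequence is shown for 4 of the 7 genes: Got1 with the largest change, Gpt2 whose groups did not overlap, Bhmt as the methionine gene past the threshold and Ftcd as the gene that was lower. Each run is the 250 bases before the RefSeq start on GRCm38.p6, read 5′ to 3′ on the gene's strand. Capitals mark matches to TGATGNAA, an element bound by pairs of C/EBP and ATF factors such as ATF4, or to TGACG, the core of the cyclic AMP response element, on either strand.
Got1 (chr19:43524606-43524855, minus strand): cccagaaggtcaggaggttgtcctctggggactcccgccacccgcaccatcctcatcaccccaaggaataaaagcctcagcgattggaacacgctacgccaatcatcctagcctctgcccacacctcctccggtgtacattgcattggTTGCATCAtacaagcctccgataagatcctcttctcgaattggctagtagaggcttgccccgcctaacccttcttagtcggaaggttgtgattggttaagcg
Gpt2 (chr8:85492326-85492575, plus strand): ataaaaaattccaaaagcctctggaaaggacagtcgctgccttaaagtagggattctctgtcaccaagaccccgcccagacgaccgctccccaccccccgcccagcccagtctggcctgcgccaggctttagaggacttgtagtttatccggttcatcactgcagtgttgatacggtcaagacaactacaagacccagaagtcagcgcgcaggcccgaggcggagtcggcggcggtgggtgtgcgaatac
Bhmt (chr13:93637759-93638008, minus strand): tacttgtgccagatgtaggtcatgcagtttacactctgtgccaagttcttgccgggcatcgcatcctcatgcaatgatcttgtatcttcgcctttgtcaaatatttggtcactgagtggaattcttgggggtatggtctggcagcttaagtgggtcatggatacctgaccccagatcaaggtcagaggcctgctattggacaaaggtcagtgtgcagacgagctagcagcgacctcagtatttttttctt
Ftcd (chr10:76575398-76575647, plus strand): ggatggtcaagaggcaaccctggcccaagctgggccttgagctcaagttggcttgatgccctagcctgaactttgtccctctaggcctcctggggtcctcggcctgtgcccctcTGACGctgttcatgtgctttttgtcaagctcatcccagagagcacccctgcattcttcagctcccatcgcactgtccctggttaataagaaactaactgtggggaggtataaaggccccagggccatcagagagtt
Got1 holds TTGCATCA, which reads TGATGNAA on the other strand, with its first base at -102 when the last base before the start is -1. Among 34 windows of the 32 genes with an entry it was the 1 match (2.94%), and 3.45% of 32851 windows of that length hold it. TGACG was in 3 of the 34, in Ftcd at -136, Aass at -37 and Shmt1 at -128, where 17.8% of all windows hold it. The whole element TGACGTCA, which contains TGACG, was in 0 of the 34 and in 1.55% of all windows. These matches describe letters in the windows and were not tested for binding. RefSeq starts need not match the GENCODE spans of genes given here. The Bhmt window lies in part inside the GENCODE span of Bhmt, and the Shmt1 window wholly inside that of Shmt1. No entry was found for Arg1, Asl, Cps1, Dbt, Gls2, Gpt, Kynu, Mat1a, Sds or Sdsl.

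In the urea cycle the mitochondrial ornithine carrier Slc25a15 (ENSMUSG00000031482, chr8:22375551-22398597, minus strand), which brings ornithine to the site where citrulline is made, was the 1 of 7 genes past the threshold. Its normalized counts had a lowest, median and highest value of 3424, 3964 and 5620 in controls and 4597, 5336 and 6982 in Cyp7a1-labelled livers. All 8 of these livers lay above the control mean and 4 above the highest control, and 6 controls lay below the lowest Cyp7a1-labelled liver. The rise was 1.30-fold (log2 fold change 0.38 ± 0.11 SE, adjusted p = 0.0468). Its call was kept without Control 20, Control 25, Cyp7a1 24 or Cyp7a1 26 and ended without any other of the 16 libraries, with a highest adjusted p of 0.0919 without Cyp7a1 28. With edgeR on recovered reads the adjusted p was 0.0535.

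The enzymes of the cycle itself did not pass. Cps1, carbamoyl phosphate synthetase, which brings ammonia into the cycle, ranged from 25446 to 78974 in controls (median 46693) and from 36440 to 83621 in the other group (median 60112). The groups overlapped over most of their range, and its log2 fold change was 0.39 (95% interval -0.07 to 0.86, adjusted p = 0.341). Ass1, argininosuccinate synthase, went from a median of 28292 (18360 to 43913) to 35222 (28608 to 62003), a log2 fold change of 0.43 ± 0.21 (SE, adjusted p = 0.246). Asl, which splits argininosuccinate into arginine and fumarate, had medians of 10531 and 13874 and a log2 fold change of 0.44 ± 0.19 (adjusted p = 0.196), and its Cyp7a1-labelled livers spanned 8361 to 23732. Arginase 1, Arg1, the enzyme that releases urea, had a log2 fold change of 0.25 ± 0.12 (adjusted p = 0.248). Otc, ornithine transcarbamylase, and Nags, which makes the activator of carbamoyl phosphate synthetase, had log2 fold changes of -0.09 ± 0.11 and 0.01 ± 0.09. Their 95% intervals were -0.33 to 0.15 and -0.18 to 0.19, which does not show that the groups were alike. Of the 7 genes, 6 lay above 0 with a median of 0.38.

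Among the genes that move amino groups to and from glutamate, 2 of 5 rose. Got1 (ENSMUSG00000025190, chr19:43499752-43524605, minus strand), the cytosolic aspartate transaminase, had a lowest, median and highest value of 1924, 3669 and 6725 normalized counts in controls and 5103, 9798 and 19135 in Cyp7a1-labelled livers. Of the 8 Cyp7a1-labelled livers 5 lay above the highest control, and 5 controls lay below the lowest of them, so the groups overlapped in part. The rise was 2.43-fold (log2 fold change 1.28 ± 0.29 SE, adjusted p = 0.0136), the largest of the 42. Got1 was also the most variable of the 42 within both groups, with its highest liver at 3.49 times the lowest among controls and 3.75 times among the Cyp7a1-labelled. The lowest values were in Control 13 and Cyp7a1 24 and the highest in Control 20 and Cyp7a1 17, the livers that stood apart above. Without Control 20 and Cyp7a1 24 together the log2 fold change was 1.52, higher by construction since its highest control and lowest Cyp7a1-labelled liver were left out.

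Gpt2 (ENSMUSG00000031700, chr8:85492576-85527560, plus strand), the mitochondrial alanine transaminase, which passes the amino group of alanine on to glutamate, had 12827, 14590 and 16558 in controls and 17126, 20046 and 29118 in Cyp7a1-labelled livers. All 8 Cyp7a1-labelled livers lay above all 8 controls. Gpt2 was the 1 of the 42 genes for which this held, while 0.507% of all genes did so in that direction and 1.04% in either. The rise was 1.42-fold (log2 fold change 0.51 ± 0.10 SE, adjusted p = 0.00811). Gpt, the cytosolic enzyme for the same reaction, had medians of 6374 and 6128, with ranges of 5022 to 6887 and 4927 to 7869, and a log2 fold change of -0.01 (95% interval -0.20 to 0.18). Within each liver the ratio of Gpt2 to Gpt normalized counts was 1.97 to 2.67 in controls (median 2.39) and 3.01 to 3.70 in Cyp7a1-labelled livers (median 3.42), with no overlap. Gene lengths scale this ratio alike in every liver, and Cyp7a1 24, low for most of the 42 genes, had a ratio of 3.53. The pair was looked at after its values were seen, among 6 pairs, and the ratio was not tested. Gpt2 alone already separated the groups, so the ratio is not separate evidence. Of 8 Cyp7a1-labelled livers, 7 exceeded the highest control for Tdo2 over Kmo and 7 for Bhmt over Bhmt2. For Ass1 over Otc 5 did, for Asl over Otc 4 and for Ftcd over Uroc1 0.

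The other genes of this group did not pass. Glud1, mitochondrial glutamate dehydrogenase, which frees ammonia from glutamate, had 14005, 16727 and 20626 in controls and 18130, 19242 and 20803 in the other group. All 8 Cyp7a1-labelled livers exceeded its control mean and 1 the highest control, and the log2 fold change was 0.19 ± 0.07 (adjusted p = 0.109). Gls2, the liver glutaminase, had 3429 to 7128 in controls and 3597 to 9385 in the other group, a log2 fold change of 0.11 ± 0.19. The sign of the Gpt change turned with edgeR, with DESeq2 and in 8 of 16 cases when a single library was left out, and that of Gls2 without Cyp7a1 36.

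**Figure D3:**
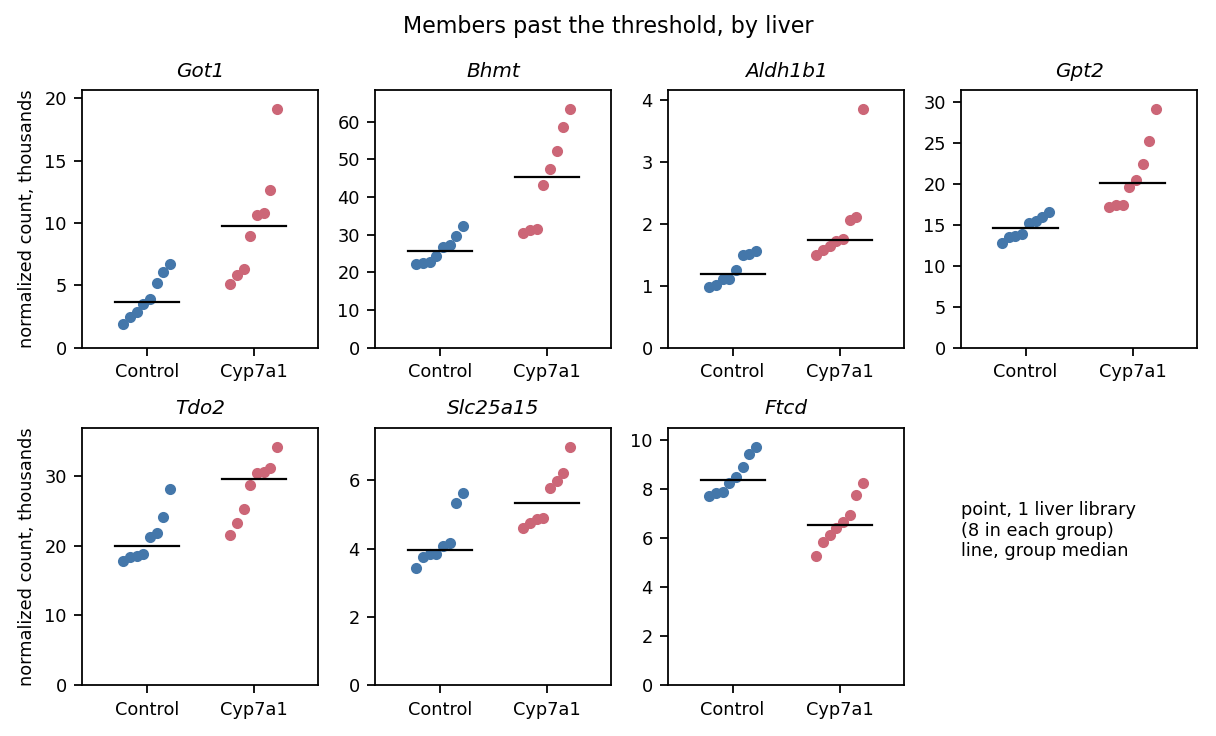
Each point is 1 liver library and each line the median of 8, in normalized counts (k), for the 7 genes past the threshold. The Gpt2 points of the groups do not overlap (highest control 16558, lowest Cyp7a1-labelled 17126), and in the Aldh1b1 panel 1 liver stands above the others at 3854.

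The methionine genes showed changes above 0 in 4 of 4, of which 1 passed. Bhmt (ENSMUSG00000074768, chr13:93616675-93637961, minus strand), which remakes methionine from homocysteine with a methyl group of betaine, had 22248, 25616 and 32348 in controls and 30508, 45289 and 63298 in Cyp7a1-labelled livers. Of the controls, 7 lay below the lowest Cyp7a1-labelled liver, and 5 Cyp7a1-labelled livers lay above the highest control. The rise was 1.67-fold (log2 fold change 0.74 ± 0.15 SE, adjusted p = 0.00915) and it passed under each alternative run. Mat1a, which makes the methyl donor S-adenosylmethionine, had 66574, 79044 and 88691 in controls and 74724, 108121 and 162518 in the other group. Although 5 Cyp7a1-labelled livers exceeded the highest control, the spread among them was wide, and the log2 fold change of 0.45 ± 0.14 had an adjusted p of 0.0664. Gnmt, glycine N-methyltransferase, which uses up S-adenosylmethionine, had medians of 22903 and 29178 and a log2 fold change of 0.46 ± 0.15 (adjusted p = 0.0805). Ahcy, which splits S-adenosylhomocysteine, had a log2 fold change of 0.13 ± 0.14. Mat1a passed under 7 and Gnmt under 6 of the 25 alternatives, among them both without Cyp7a1 24.

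All 4 histidine genes had changes below 0, and Ftcd, the last enzyme of the route, fell. Ftcd (ENSMUSG00000001155, chr10:76575648-76590338, plus strand) moves the formimino group that is left of histidine onto folate. Its values were 7688, 8365 and 9710 in controls and 5270, 6528 and 8219 in Cyp7a1-labelled livers. In this case 6 of 8 Cyp7a1-labelled livers lay below the lowest control, and each of the 8 was under the mean of controls. The log2 fold change was -0.36 ± 0.08 (SE, adjusted p = 0.0148), 1.29-fold lower, and it passed under each alternative run. The enzymes before it act in the order Hal, Uroc1 and Amdhd1. Hal, histidine ammonia lyase, ranged from 3447 to 8865 in controls and from 2797 to 8356 in the other group, where Cyp7a1 36 was highest, with a log2 fold change of -0.38 ± 0.24 (adjusted p = 0.402). Uroc1, urocanase, had 11955, 13545 and 15307 in controls and 9862, 11364 and 13924 in the other group, with 5 Cyp7a1-labelled livers below the lowest control, and a log2 fold change of -0.23 ± 0.08 (adjusted p = 0.107). Amdhd1, imidazolonepropionase, had medians of 2499 and 2208 and a log2 fold change of -0.21 ± 0.10 (adjusted p = 0.241). The median of the 4 was -0.30. Uroc1 was past the threshold with quantile normalization and with equal totals.

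For tryptophan, the first enzyme of the kynurenine pathway rose and the genes after it did not pass. Tdo2 (ENSMUSG00000028011, chr3:81957090-81976202, minus strand), the liver tryptophan dioxygenase, had 17815, 20002 and 28073 in controls and 21519, 29540 and 34132 in Cyp7a1-labelled livers. The groups overlapped, with 5 Cyp7a1-labelled livers above the highest control, Control 25. Tdo2 was 1.33-fold higher (log2 fold change 0.42 ± 0.11 SE, adjusted p = 0.0322). The call ended without Control 12, 13, 35 or 38 or Cyp7a1 17, 19, 28 or 36, with a highest adjusted p of 0.0653 without Cyp7a1 28. Kmo, kynurenine monooxygenase, had 7403, 8891 and 9888 in controls and 6231, 7644 and 8811 in the other group, with all 8 Cyp7a1-labelled livers below the control mean and a log2 fold change of -0.24 ± 0.08 (adjusted p = 0.0715). Kynu, kynureninase, and Haao, which opens the ring of hydroxyanthranilate, had log2 fold changes of 0.20 ± 0.10 and -0.05 ± 0.08. Within livers the ratio of Tdo2 to Kmo was 1.96 to 2.98 in controls and 2.87 to 4.61 in Cyp7a1-labelled livers, of which 7 exceeded the highest control, a ratio that was likewise chosen after its values were seen and not tested.

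**Figure D4:**
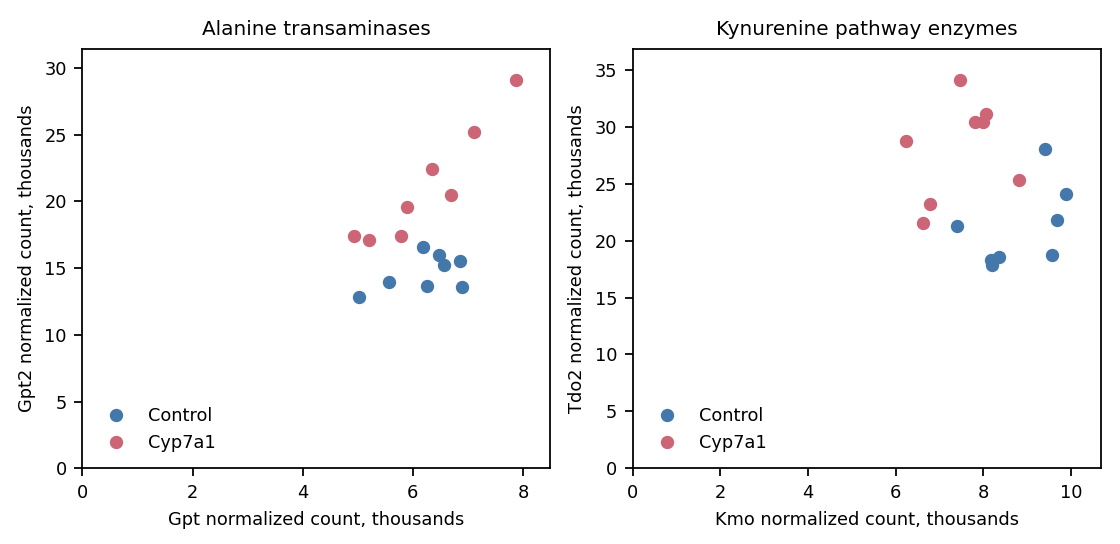
Each point is 1 liver, with normalized counts (k) on both axes, for Gpt2 against Gpt and for Tdo2 against Kmo. Cyp7a1-labelled livers lie above controls of like Gpt, at ratios of 3.01 to 3.70 against 1.97 to 2.67, and to the upper left of most controls in the Tdo2 and Kmo panel.

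Aldh1b1 (ENSMUSG00000035561, chr4:45799022-45804604, plus strand), a mitochondrial aldehyde dehydrogenase, had 983, 1183 and 1566 in controls and 1505, 1741 and 3854 in Cyp7a1-labelled livers. Its highest liver, Cyp7a1 36, was far above the next at 2108, and 7 of 8 Cyp7a1-labelled livers exceeded the highest control. The rise was 1.57-fold (log2 fold change 0.65 ± 0.16 SE, adjusted p = 0.0254). Without Cyp7a1 36 the log2 fold change was 0.51 and the gene still passed (adjusted p = 0.0147), while without Control 38 the adjusted p was 0.0513.

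No gene of serine and glycine breakdown passed. Sds, serine dehydratase, which makes pyruvate from serine, had 1967, 3437 and 4351 in controls and 3179, 4455 and 8100 in the other group, highest in Cyp7a1 17. With 4 Cyp7a1-labelled livers above the highest control, its log2 fold change was 0.55 ± 0.18 (adjusted p = 0.0853). Its relative Sdsl had the lowest values of the 42, at 71.8 to 139 in controls and 69.6 to 201 in Cyp7a1-labelled livers, and a log2 fold change of 0.20 ± 0.20. Shmt1, which moves the carbon of serine to folate, had 3851 to 5676 in controls and 3773 to 6176 in the other group, with medians of 4774 and 5141 and a log2 fold change of 0.10 ± 0.10 (adjusted p = 0.663). Gldc, the decarboxylase of the glycine cleavage system, had a log2 fold change of 0.11 ± 0.14, with a wider spread in Cyp7a1-labelled livers (1910 to 4652) than in controls (2575 to 3434). Agxt, which turns glyoxylate into glycine, had a log2 fold change of -0.03 (95% interval -0.44 to 0.39).

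Tyrosine and lysine enzymes did not pass either. Hpd, which turns hydroxyphenylpyruvate into homogentisate, had medians of 59638 and 67708 in the 2 groups and ranges of 36632 to 79008 and 40616 to 89532, a log2 fold change of 0.21 ± 0.19 (adjusted p = 0.607). Hgd and Fah, which act later in the route, had log2 fold changes of 0.09 ± 0.13 and -0.09 ± 0.10. Aass, the entry enzyme of lysine breakdown, had 5361, 7487 and 8598 in controls and 5773, 8042 and 11623 in the other group, a log2 fold change of 0.19 ± 0.15 (adjusted p = 0.516).

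No gene of branched chain breakdown passed. Bckdha and Bckdhb are the alpha and beta subunits of the component that decarboxylates branched chain keto acids, and Dbt is the transacylase core of the same complex. Bckdha had medians of 5910 and 5939, with ranges of 5083 to 6525 and 4926 to 6657, and a log2 fold change of 0.03 (95% interval -0.11 to 0.16, adjusted p = 0.864). Bckdhb had 1578, 1832 and 2004 in controls and 1887, 2031 and 2210 in the other group. All 8 Cyp7a1-labelled livers exceeded the control mean of Bckdhb, and its log2 fold change of 0.16 ± 0.05 had an adjusted p of 0.0622. Bckdhb passed under 6 of the 25 alternatives. Dbt and Mccc1, a subunit of the carboxylase of leucine breakdown, both had log2 fold changes of -0.03, with intervals of -0.31 to 0.26 and -0.18 to 0.11.

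In proline and ornithine breakdown, Oat, ornithine aminotransferase, had 15636, 19213 and 34964 in controls and 21186, 28502 and 40259 in Cyp7a1-labelled livers. Control 25 was the highest control, and the 95% interval of the log2 fold change of 0.48 was 0.12 to 0.83 (limma adjusted p = 0.103). Without Control 25 the limma adjusted p was 0.0305, the 1 of 25 alternatives in which Oat passed, and without Cyp7a1 28 it was 0.192. Leaving out the highest control raises the change by construction. Prodh, proline dehydrogenase, and Aldh4a1, which finishes the route to glutamate, had log2 fold changes of 0.02 ± 0.11 and 0.06 ± 0.07. Prodh2, the hydroxyproline dehydrogenase, had medians of 3446 and 3053 and a log2 fold change of -0.18 ± 0.09 (adjusted p = 0.269).

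Levels were set against each other per kilobase of annotated exon, since longer transcripts give more reads. On that scale the most abundant of the 42 in controls were Hpd (28025 normalized counts per kilobase, median), Mat1a (22793), Gnmt (18991), Ass1 (11720) and Arg1 (10864), and the least abundant were Kynu (385), Mccc1 (117) and Sdsl (67.2). The 5 most abundant were in the same order in the Cyp7a1-labelled group. Got1 moved from rank 25 of 42 to rank 14 and Bhmt from 12 to 8, while Ftcd moved from 16 to 22. Annotated exon length counts every isoform, so a gene with long rare isoforms is placed below the level of its main transcript. Over the 42 genes the highest control exceeded the lowest by a median of 1.57-fold, and the highest Cyp7a1-labelled liver the lowest by 1.72-fold. Over the 9569 genes with control medians no lower than that of Sdsl, these were 1.35-fold and 1.32-fold.

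Spans of genes follow GENCODE M21 (build GRCm38, mm10), and every value counts a whole gene, not a site in it. None of the 7 genes past the threshold overlapped another gene of the table. For 10 others (Nags, Gls2, Sds, Shmt1, Kmo, Hpd, Bckdha, Mccc1, Prodh and Oat) the span overlapped another gene, such as Plbd2 for Sds and Fh1 for Kmo. Oat lies on the same strand as Fgfr2, and the other 9 lie opposite the gene they overlap. The strand setting of the counting was not found in the labels or notes. Whole spans were compared, not exons, and how many reads such pairs share was not tested.

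A wider list of 66 enzymes of amino acid metabolism outside the 42 was looked at in the same fit. Of 59 in the table, 6 rose (10.2%, against 3.07% of all genes) and 0 fell, with a median log2 fold change of 0.01. Together with 16 transporters, 7 of 75 rose, and 4 of 75 without Control 12, Cyp7a1 28 or Cyp7a1 36. Single omissions left 475 to 813 calls over all genes. Csad, which makes the taurine precursor hypotaurine, and Asns, asparagine synthetase, rose by 2.43 ± 0.16 and 2.24 ± 0.38 (SE) on the log2 scale, with adjusted p of 1.42e-07 and 0.0022, although Asns was scarce, at 6.25 to 38.5 normalized counts in controls and 26.2 to 179 in the other group. Cth, which releases cysteine from cystathionine, had 2410, 3554 and 5194 in controls and 4022, 6230 and 8798 in Cyp7a1-labelled livers. With 6 of 8 Cyp7a1-labelled livers above the highest control, Cth was 1.71-fold higher (adjusted p = 0.0189). Bhmt2, which remakes methionine with S-methylmethionine as the methyl donor, rose by 0.31 ± 0.09, Agxt2, a mitochondrial aminotransferase, by 0.22 ± 0.06, and Tat, the tyrosine transaminase that acts just before Hpd, by 0.84 ± 0.24. When single libraries were left out, the call of Bhmt2 ended in 12 of 16 cases, that of Agxt2 in 5 and that of Tat in 11. Tat reached 76696 in Cyp7a1 17, against 13648 to 30550 in controls.

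Of 16 amino acid transporters 1 rose and 0 fell (6.25% called, near the 6.12% of all genes), with a median log2 fold change of 0.16. Slc25a22, a mitochondrial glutamate carrier, had 3809, 4400 and 5053 in controls and 4780, 5962 and 8701 in Cyp7a1-labelled livers. All but 1 of the 8 Cyp7a1-labelled livers exceeded the highest control. The rise was 1.38-fold (adjusted p = 0.00808). Among 15 regulators of these pathways, such as the glucagon receptor and Hnf4a, Ppargc1a, a coactivator of gluconeogenic genes, rose 1.61-fold (adjusted p = 0.00175) and none fell, so that 6.67% were called, likewise near the share of all genes. Its values were 78.6 to 132 in controls and 125 to 200.03 in Cyp7a1-labelled livers.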

How the data were processed

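Liver RNA from 16 libraries was measured by RNA sequencing. The deposited table holds a normalized signal per gene, which the authors made by dividing read counts by 1 size factor per library. Per the submitters' processing notes reads were handled with STAR 2.7.11a, Trim Galore 0.6.10, featureCounts, R 3.6.3 and DESeq2 on build mm10. Neither annotation, strand setting nor the rule behind the 12618 genes is stated in those notes or the labels. In every library the values checked, 10881 to 11725 of lower count, were all whole multiples of 1 fitted step within 0.05 reads, which gave the depth per library and the reads for edgeR 4.0.16 and DESeq2 1.42.0 as alternatives. 1 gene with a text cell was dropped.

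The main test was limma 3.58.1 with a mean-variance trend (R 4.3.3) on log2(value + 1), over 12617 genes with a mean of at least 10 (none was removed by this filter), two-sided, with Benjamini-Hochberg adjustment and a threshold of 0.05. Fold changes are on that log2(value + 1) scale, Cyp7a1-labelled minus control, and ± gives the standard error of 8 against 8 libraries. The labels give no batch or pairing. Groups were taken from the labels. On simulated counts for the comparison (12617 genes) limma recovered 78% of 100 genes changed 1.5-fold and 93% of 100 changed 2-fold, with 2.29% of calls false. Those counts were drawn independently for each gene, without shifts that many genes of a library share. The median standard error was 0.116 for the 42 genes and 0.086 for all genes, so these rates need not hold for the 42. The alternatives were a minimum mean of 50, pseudocount 8, equal totals, quantile normalization, no filter, array weights, edgeR, DESeq2 and each library left out in turn, and leaving out Control 20 and Cyp7a1 24 together was added after the data were seen.

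The 42 genes and all other lists were chosen with earlier results of these data known. Full values are given for each of the 42 past the threshold and, in each pathway, for the gene with the smallest p and the one with the largest mean. In each wider list up to 6 genes past the threshold are named. Upstream sequences come from RefSeq (GRCm38.p6). The list of pericentral markers is not reported here.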

Additional observations from a re-analysis of the deposited data

Results flagged for a closer look

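Among 112 sets of 8 libraries looked at for the named genes, 2 held a library that stood far from the other 7 by Dixon's 95% criterion, where chance alone gives about 1 in 20, or 5.6 sets. Aldh4a1, which finishes proline breakdown, was at 4642 normalized counts in Cyp7a1 24 and at 5658 to 6431 in the other Cyp7a1-labelled livers. Cyp7a1 24 was lowest of its group for 30 of the 42 genes and had the highest macrophage marker sum, and the part of this in the Aldh4a1 value was not tested. Aldh1b1, the mitochondrial aldehyde dehydrogenase, was at 3854 in Cyp7a1 36 and at 1505 to 2108 in the other Cyp7a1-labelled livers.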

How the results depend on the processing

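Got1, Gpt2, Bhmt and Ftcd passed under each of the 25 alternatives. Slc25a15 lost its call without 12 single libraries and with edgeR, Tdo2 without 8 single libraries and Aldh1b1 without Control 38. Of the 42 genes 7 passed. Quantile normalization, equal totals and DESeq2 each gave 12, leaving out Control 20 and Cyp7a1 24 together gave 11, and leaving out single libraries gave 4 to 10. Of the 75 wider enzymes and transporters 7 passed. Quantile normalization, array weights and DESeq2 each gave 12, equal totals and the joint omission each gave 13, and single omissions gave 4 to 10. Over all genes 772 passed, with 475 (without Cyp7a1 28) to 813 under single omissions. The counts over all genes under the other settings are not given here. Without those counts beside them, larger counts among the 42 or the 75 are not read here as a result about these genes. On the simulated counts, which were drawn independently for each gene, 11.6% of DESeq2 calls were false, where limma had 2.29%. Quantile normalization and equal totals were limma fits and also gave 12 of the 42. The cause of these shifts was not tested.

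Over the 42 genes and 25 alternatives (1050 values), 956 kept their direction and side of the threshold, 22 lost and 32 gained a call, and 40 values of 8 genes, all uncalled, changed sign. Calls were gained by Mat1a under 7 alternatives, Gnmt and Bckdhb under 6 each, Kmo under 5 and Glud1 under 4. Uroc1 gained a call under 2, and Sds and Oat under 1 each. The log2 fold change of Gpt was 0.0020 with edgeR, 0.00076 with DESeq2 and 0.060 with the joint omission. With array weights it was 0.0066 for Agxt, 0.0022 for Haao and 0.017 for Dbt, and with the joint omission 0.14, 0.045 and 0.095 for these and 0.028 for Mccc1. Single omissions gave -0.036 to 0.056 for Nags, -0.015 to 0.19 for Gls2, -0.058 to 0.039 for Gpt, -0.15 to 0.065 for Agxt, -0.085 to 0.0050 for Haao, -0.095 to 0.039 for Dbt and -0.034 to 0.080 for Prodh. No paired analysis was possible because the groups share no replicate numbers. The lowest value of the 42 genes in any library was 69.6 normalized counts (Sdsl), and the effect of depth on them was not tested.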

Other observations

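Among 10 genes that glucagon or fasting is known to raise, 4 were higher at an adjusted p under 0.05 (limma), where 3.07% of all genes were, 0 were lower, and 9 of 10 lay above 0, with a median log2 fold change of 0.50. Beside Tat and Ppargc1a these were Igfbp1, a liver-secreted binding protein of insulin-like growth factors, with 606 to 1441 normalized counts in controls and 1259 to 4161 in Cyp7a1-labelled livers (log2 fold change 1.07 ± 0.23 SE, adjusted p = 0.0126), and Lpin1, a phosphatidate phosphatase (0.93 ± 0.26, adjusted p = 0.0433). When single libraries were left out, the call of Lpin1 ended in 10 of 16 cases, and it ended without Control 20 and Cyp7a1 24 together. The other 6 genes did not pass, with limma adjusted p from 0.145 to 0.883. Their log2 fold changes were 1.13 for Fgf21, 0.32 for Pck1, 0.29 for Irs2, 0.12 for G6pc, 0.11 for Pdk4 and -0.14 for Nr4a1. Cyp7a1 17 held the highest value of Igfbp1, Lpin1 and Tat, and also of 23 of the 42 amino acid genes.

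Because several urea cycle and histidine enzymes are periportal, other genes of liver zones were looked at. Of 13 periportal markers outside the 42, 0 were higher and 1 was lower (7.69%, where 3.05% of all genes were lower), with a median log2 fold change of 0.09. Pck1 and G6pc are in this list as well as in the glucagon and fasting list. The lower gene was Hsd17b6, a steroid dehydrogenase, at 1176 to 2410 normalized counts in controls and 237 to 1160 in Cyp7a1-labelled livers, with no overlap (-1.73 ± 0.22 SE, adjusted p = 0.00027).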
